A study of Mus musculus with 48 samples.

Results

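The genes described here are the 39 protein-coding Hox genes of the mouse, found among the 54752 genes of the matrix by matching each Ensembl identifier to its GENCODE symbol and keeping the symbols made of Hox, a cluster letter from a to d and a number. They comprise 11 genes of the Hoxa cluster on chromosome 6, 10 of the Hoxb cluster on chromosome 11, 9 of the Hoxc cluster on chromosome 15 and 9 of the Hoxd cluster on chromosome 2. The rule uses symbols and no measured value, although it was set with earlier results of these data known.

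Hox genes encode homeodomain transcription factors that give cells along the head-to-tail axis of the embryo their positional identity. Within a cluster, the genes at the 3′ end (low paralog numbers) are switched on early and anteriorly, and those at the 5′ end (high paralog numbers) late and posteriorly, so the set of paralogs that an adult cell still transcribes is read as a record of where its ancestors lay. Adult endothelial cells keep such regional Hox transcription, and several Hox proteins are known to regulate vessel growth.

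The RNA came from 4 cell populations with 12 libraries each, 48 in all: lymphatic endothelial cells (LECs) sorted from either heart or diaphragm, heart blood endothelial cells (BECs) and cardiomyocytes. All 13 mice were Prox1-eGFP mice on C57BL/6, in which the Prox1 locus drives eGFP, and their ages were 8 to 16 months in the labels, whereas the study's methods give ages in weeks. In each population 4 libraries came from ctrl mice and 5 from mice given angiotensin II by infusion (angII). Both of these groups received BSA as the control protein. A further 3 libraries came from mice given angiotensin II together with VEGFCc156s, a form of the lymphatic growth factor VEGFC (angII+VEGFC). Tissue was taken 5 to 6 weeks after a minipump had been implanted. LECs were sorted as CD31-positive, CD45.2-negative, eGFP-positive cells and BECs as the eGFP-negative cells of the same gate, so that every LEC population rests on the activity of Prox1, and cardiomyocytes were spun down at low speed without a sort. The same 12 mice gave the heart LECs, heart BECs and cardiomyocytes, and 11 of them also gave the diaphragm LECs.

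The values are TPM, the share of a library's transcripts that belongs to a gene on a fixed total and already divided by transcript length, so levels can be set side by side between genes. TPM keep no read count, and the depth of each library is therefore unknown. Between 12924 and 25896 genes reached 1 TPM in the endothelial libraries and between 13020 and 19306 in the cardiomyocyte libraries. Prox1, the transcription factor that specifies lymphatic endothelium, had medians of 176.3 and 236.2 TPM in LECs of heart and diaphragm. Its medians were 2.808 and 3.071 TPM in BECs and cardiomyocytes. Since the sort used the Prox1 locus, its levels in LECs and BECs are no separate check of the labels. The blood endothelium marker sum had medians of 3039 and 1260 TPM in LECs of heart and diaphragm, 18230 TPM in BECs and 2891 TPM in cardiomyocytes. Each population also carried markers of other cells, with a median fibroblast marker sum of 1278 TPM in heart LECs and 4021 TPM in cardiomyocytes. A total of 10 libraries stood apart in marker sums or gene number, and the number of Hox genes called without them is given with each comparison. These are bulk samples, in which fewer cells of a type and less RNA per cell cannot be told apart.

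Hox transcription was highest in lymphatic endothelium and came mainly from the middle of the Hoxd cluster and from paralog group 7. Summed over the 39 genes, Hox transcripts ranged from 167.8 to 240.7 TPM (median 207.7) in diaphragm LECs, from 73.92 to 160.5 TPM (median 114.0) in heart LECs, from 22.59 to 35.74 TPM (median 28.15) in heart BECs and from 8.218 to 18.35 TPM (median 11.98) in cardiomyocytes. The 4 ranges did not overlap. Of the 39 genes, 21 reached 1 TPM in at least 3 of 12 libraries of diaphragm LECs, 18 of heart LECs, 10 of heart BECs and 4 of cardiomyocytes. The Hoxd sum, with medians of 79.09 and 120.2 TPM in heart and diaphragm LECs against 1.991 and 1.679 TPM in heart BECs and cardiomyocytes, set the lymphatic populations apart most clearly. The Hoxa sum had medians of 24.29, 57.75, 12.48 and 3.75 TPM and the Hoxb sum of 13.46, 24.05, 10.98 and 5.475 TPM in the same order of populations. The Hoxc cluster was nearly silent, with medians of 2.664, 2.4, 1.012 and 0.4754 TPM for all 9 of its genes together.

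Each population had its own short list of Hox genes at a median of 1 TPM or more. In heart LECs there were 11, in falling order Hoxd9, Hoxd8, Hoxa7, Hoxd10, Hoxb2, Hoxd4, Hoxa5, Hoxb7, Hoxb5, Hoxb1 and Hoxc8. In diaphragm LECs there were 13, led by Hoxd9, Hoxa7, Hoxd8, Hoxd10 and Hoxb7. Heart BECs had 5 (Hoxb2, Hoxa5, Hoxa7, Hoxa2 and Hoxb5) and cardiomyocytes had 3 (Hoxb2, Hoxa5 and Hoxd8). The 5 genes with a median of at least 10 TPM in some population, chosen after their values were seen, were Hoxa7, Hoxb7, Hoxd8, Hoxd9 and Hoxd10. They made up a median of 80.32% of all Hox TPM in heart LECs and 84.35% in diaphragm LECs, against 15.52% in heart BECs and 16.97% in cardiomyocytes. The 9 genes of paralog groups 11 to 13, such as Hoxd13 and Hoxa13, which pattern the digits and the genital tract, had medians of at most 0.239 TPM in every population.

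**Figure D1:**
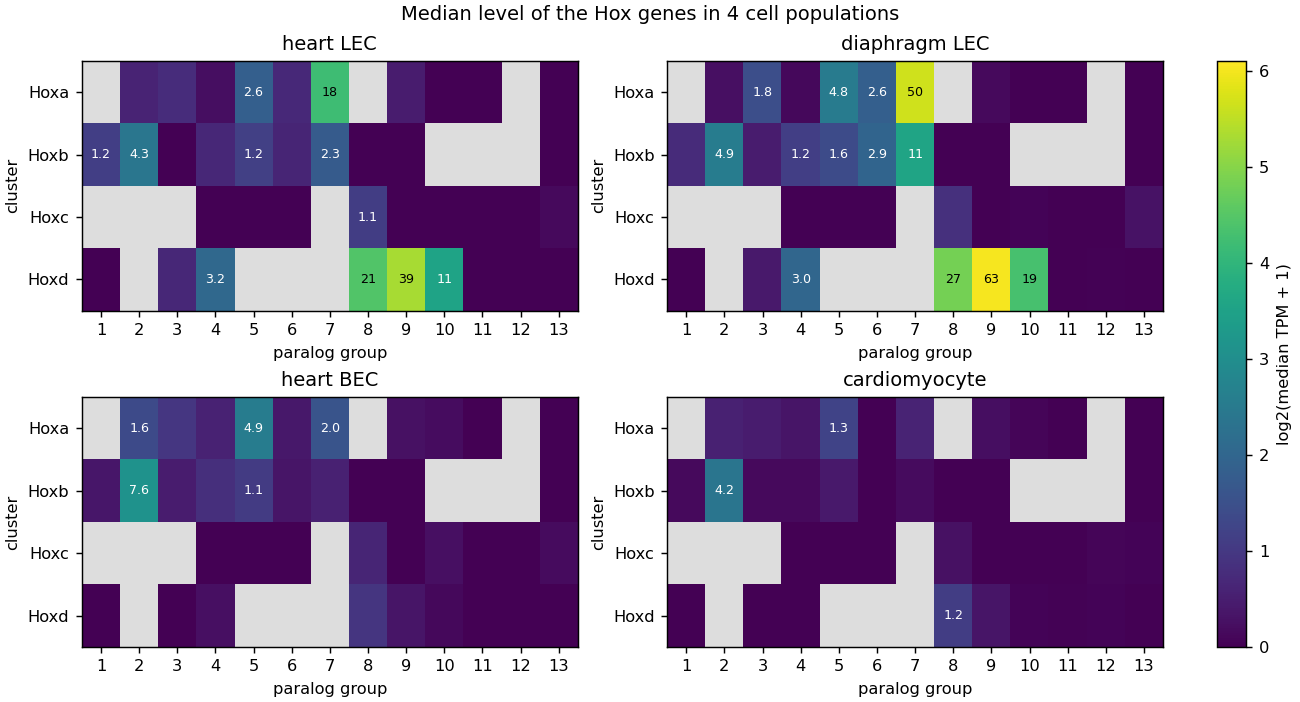
Median level of the Hox genes in the LECs of both tissues, BECs and cardiomyocytes (12 libraries each), arranged by cluster (vertical) and paralog group (horizontal). Colour is log2(median TPM + 1), the printed figures are medians of at least 1 TPM, and grey cells have no gene or a gene not reported here; the bright block at Hoxd8, Hoxd9 and Hoxd10 and the Hoxa7 cell are seen in the lymphatic panels, while heart BECs peak at Hoxb2 with 7.648 TPM.

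The Hoxd genes that dominate the lymphatic libraries lie side by side on the plus strand of chromosome 2 (GRCm38), Hoxd10 at chr2:74691924-74695105, Hoxd9 at chr2:74697727-74700208 and Hoxd8 at chr2:74704615-74707933. The RefSeq windows of Hoxd10 and Hoxd8 and that of Hoxa5 on the minus strand of chromosome 6, which was lower in heart LECs than in heart BECs, are shown for comparison, each as the 250 bases before the RefSeq start of the gene (GRCm38.p6, 5′ to 3′ on the strand of the gene). Capitals mark CCAAT and its reverse complement, the letters of the CCAAT box, the only one of the motifs searched that matched in these 3 windows. RefSeq windows were found for 22 of the 39 genes, and those of Hoxd9 and Hoxa7 overlap annotated exons of the gene itself and are not shown.
Hoxd10, chr2:74691641-74691890: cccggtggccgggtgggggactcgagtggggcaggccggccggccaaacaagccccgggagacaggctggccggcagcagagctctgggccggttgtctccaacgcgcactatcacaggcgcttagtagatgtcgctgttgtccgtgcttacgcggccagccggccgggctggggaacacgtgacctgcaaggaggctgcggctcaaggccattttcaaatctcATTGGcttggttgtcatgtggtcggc
Hoxd8, chr2:74704365-74704614: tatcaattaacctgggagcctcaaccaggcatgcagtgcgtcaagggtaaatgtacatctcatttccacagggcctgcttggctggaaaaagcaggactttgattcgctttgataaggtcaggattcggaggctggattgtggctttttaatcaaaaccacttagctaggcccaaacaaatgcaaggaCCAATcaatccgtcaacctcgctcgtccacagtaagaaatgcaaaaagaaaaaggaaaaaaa
Hoxa5, chr6:52204588-52204837: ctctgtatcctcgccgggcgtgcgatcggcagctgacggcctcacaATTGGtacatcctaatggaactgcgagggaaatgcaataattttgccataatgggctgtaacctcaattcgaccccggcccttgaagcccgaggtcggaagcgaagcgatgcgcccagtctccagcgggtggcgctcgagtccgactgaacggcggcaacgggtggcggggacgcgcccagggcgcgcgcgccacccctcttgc

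The window of Hoxd8 was poor in G and C (44.4%) and held 6 CpG dinucleotides, whereas that of Hoxd10 was 65.6% G and C with 20 CpG and that of Hoxa5 63.6% with 28. The median over all 32851 RefSeq windows of this length was 52.4% with 6 CpG, and over the 24 windows of the Hox genes 58.6% with 12.5. On both strands and with overlaps allowed, CCAAT was in 14 of the 24 Hox windows and in 33.8% of all windows, GGGCGG (the GC box) in 10 and in 32.7%, and TATAAA (the TATA box) in 4 and in 12.4%. TGACAG, the letters bound by Meis proteins, was in 2 of the 24 and in 15.9% of all windows, TGATTNAT, bound by pairs of Pbx and Hox proteins, was in 2 and in 2.82%, and a direct repeat of AGGTCA with a spacer of 5 bases, bound by retinoic acid receptors, was in 0 and in 0.00913%. These matches are a description of the letters in the windows.

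The first comparison asks how lymphatic and blood endothelium of the same heart differ in Hox transcription. Of 23 Hox genes tested, 7 were higher in heart LECs than in heart BECs, against a background of 8.94% of all 32754 genes tested, and 2 were lower, against 8.64% (limma on log2(TPM + 1), Benjamini-Hochberg adjusted p under 0.05). The 7 were 5 genes of the Hoxd cluster (Hoxd3, Hoxd4, Hoxd8, Hoxd9 and Hoxd10) and both expressed genes of paralog group 7, and the 2 were Hoxb2 and Hoxa5. The median difference over the Hox genes tested was 0.26 and over all genes 0.15 on this log2 scale. In 3 of the 23 every heart LEC library lay above every heart BEC library, against 1.4% of all genes, and in 0 below, against 1.79%.

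Hoxd9, a 5′ gene of the trunk and limb, had the largest difference. It ranged from 22.41 to 58.99 TPM (median 38.77) in heart LECs and from 0 to 0.7547 TPM (median 0.2728) in heart BECs. The groups did not overlap, and the log2(TPM + 1) difference was 4.88 ± 0.15 (SE; limma adjusted p = 6.038e-23). Hoxd8, described as a target of Prox1 during lymphatic differentiation, ranged from 11.16 to 36.87 TPM (median 20.6) against 0.1776 to 1.987 TPM (median 0.9158), again without overlap and with a difference of 3.52 ± 0.19 (adjusted p = 1.759e-16). Both genes were higher in the LECs of 12 of 12 mice. Prox1 itself was present in heart BECs at a ratio of 0.01593 to its median in heart LECs. The BEC gate excluded cells with eGFP from the Prox1 locus, so this ratio does not measure the lymphatic RNA in the BEC libraries. The part of such RNA in the low BEC levels of these Hoxd genes was not tested.

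Hoxd10, which restrains sprouting in cultured blood endothelium, had a median of 10.57 TPM in heart LECs and reached 16.06 TPM, while its heart BEC libraries stayed between 0 and 0.6793 TPM. The library of ctrl mouse 1 was listed at 0 for Hoxd10 in heart LECs, so the ranges overlapped, and the difference was 3.06 ± 0.32 (limma adjusted p = 2.341e-09) with 11 of 12 mice higher in LECs. Hoxd4, an anterior gene that patterns the hindbrain and neck, ranged from 1.138 to 7.354 TPM in heart LECs and from 0 to 0.8049 TPM in heart BECs, without overlap (1.71 ± 0.30, adjusted p = 4.001e-05). Hoxd3, known to promote an angiogenic state of endothelium, had medians of 0.6135 and 0 TPM and a difference of 0.79 ± 0.24 (adjusted p = 0.02159), which did not pass without mouse 2 (adjusted p = 0.08014) or mouse 3 (0.05015), nor without the libraries that stood apart (0.06573). Of the exon bases of Hoxd4 and Hoxd3, 52.3% and 62.3% are shared with each other or with a read-through gene on the same strand, so their separate levels are uncertain, whereas the exons of Hoxd8 and Hoxd9 overlap no other annotated gene.

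The paralogs of group 7, which pattern the thorax, were the other lymphatic genes. Hoxa7 ranged from 2.441 to 41.75 TPM (median 17.54) in heart LECs and from 0.2862 to 9.331 TPM (median 2.015) in heart BECs. It was higher in 12 of 12 mice although the ranges overlapped, with a difference of 2.38 ± 0.25 (limma adjusted p = 4.366e-09). Hoxb7 ranged from 0 to 9.189 TPM (median 2.344) against 0 to 1.505 TPM (median 0.4769) and was higher in 10 of 12 mice (1.38 ± 0.26, adjusted p = 0.0001447). An antisense RNA, Hoxaas3, overlaps 20.4% of the exon bases of Hoxa7, and since no source used here states that strand was kept, reads of the pair cannot be told apart.

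Hoxb2 and Hoxa5 went the other way. Hoxb2, a hindbrain gene, ranged from 0.4691 to 10.46 TPM (median 4.265) in heart LECs and from 3.056 to 13.15 TPM (median 7.648) in heart BECs, with 9 of 12 mice lower in LECs and a difference of -1.05 ± 0.28 (limma adjusted p = 0.005868). Hoxa5, needed for lung and airway development, had medians of 2.598 and 4.942 TPM, was lower in LECs in 10 of 12 mice and differed by -0.93 ± 0.29 (adjusted p = 0.021). The ranges of both genes overlapped widely between the populations. The Hoxa5 call was lost without mouse 2 (adjusted p = 0.05209), mouse 6 (0.1017), mouse 9 (0.05686) or mouse 18 (0.05608) and without the libraries that stood apart (0.05996).

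Within each treatment group, as contrasts of the same fit, Hoxd8, Hoxd9, Hoxd10 and Hoxa7 were higher in heart LECs than in heart BECs. For Hoxd9 the log2 difference between heart LECs and heart BECs was 4.76 in ctrl, 4.85 in angII and 5.03 in angII+VEGFC mice, and for Hoxd8 it was 3.72, 3.15 and 3.71. Hoxd10 gave 2.54, 3.15 and 3.49 and Hoxa7 gave 3.10, 1.71 and 2.33. Hoxd4 gave 1.78, 1.83 and 1.52 and did not pass in angII+VEGFC mice (limma adjusted p = 0.1493), and Hoxd3 gave 0.16, 0.83 and 1.36 and passed in no treatment group (adjusted p = 0.902, 0.136 and 0.1018). Hoxb7 gave 1.32, 0.83 and 1.98 and passed only in angII+VEGFC mice (limma adjusted p = 0.06405, 0.1637 and 0.01164). Hoxb2 gave -0.59, -0.49 and -2.06 and also passed only in angII+VEGFC mice (adjusted p = 0.575, 0.4457 and 0.01317). Hoxa5 gave -1.83, -0.88 and -0.06 and passed only in ctrl mice (adjusted p = 0.01205). Among the 6 libraries per population of sequencing batch 1 alone, 4 Hox genes passed the limma test, namely Hoxd9 (4.67), Hoxd8 (3.56), Hoxd10 (2.65) and Hoxa7 (2.82), and in batch 2 alone 6 were higher and 1 lower. Without the libraries that stood apart 6 were higher and 2 lower. Over all genes, 836 were higher and 993 lower in batch 1, 2428 and 2368 in batch 2, and 2802 and 2373 without those libraries.

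Diaphragm LECs, compared with the same heart BECs, had 9 of 23 Hox genes higher, against 7.54% of all genes, and 0 lower, against 9.01% (limma; 14 of the 23 had an unadjusted p under 0.05). For comparisons of populations the share of all genes at that unadjusted threshold is not given here, so such counts cannot be weighed against it. The 9 were Hoxd9 (5.62 ± 0.15, adjusted p = 8.27e-25), Hoxd8 (4.04 ± 0.19), Hoxd10 (3.99 ± 0.32), Hoxa7 (3.69 ± 0.25), Hoxb7 (3.12 ± 0.26), Hoxd4 (1.73 ± 0.30), Hoxb6 (1.68 ± 0.26), Hoxa6 (1.39 ± 0.27) and Hoxd3 (0.76 ± 0.25). This comparison shares its heart BEC libraries with the previous one and uses tissue from another organ. Hoxa5 had medians of 4.835 TPM in diaphragm LECs and 4.942 TPM in heart BECs, and the interval of its difference ran from -0.60 to 0.57. Without the libraries that stood apart 9 Hox genes were higher and 1 lower, and 2409 and 2666 of all genes.

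**Figure D2:**
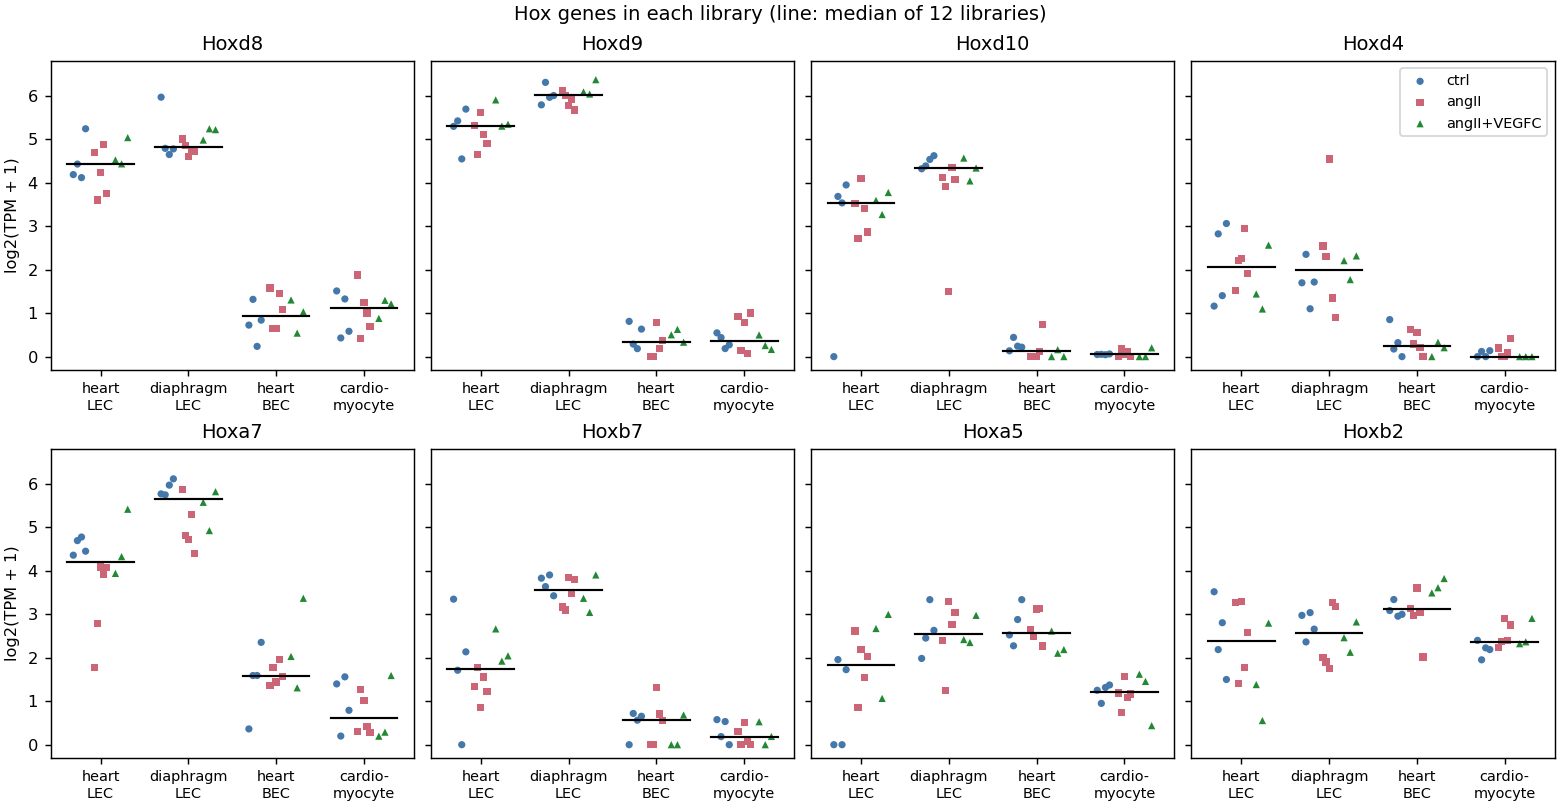
Level of 8 Hox genes in each of the 48 libraries on a log2(TPM + 1) axis, with ctrl, angII and angII+VEGFC libraries as circles, squares and triangles and the median of 12 libraries as a line. Hoxd8 and Hoxd9 of every LEC library lie above every heart BEC and cardiomyocyte library, while Hoxb2 overlaps between all populations and Hoxa5 between all but heart BECs and cardiomyocytes.

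The next comparison sets the lymphatic endothelium of the diaphragm against that of the heart, the positional contrast within a single cell type. Of 23 Hox genes tested 5 were higher in diaphragm LECs, against 1.88% of all 32754 genes, and 0 were lower, against 2.67% (limma adjusted p under 0.05; 10 of the 23 had an unadjusted p under 0.05). The 5 were Hoxa6, Hoxa7, Hoxb6 and Hoxb7, the thoracic paralogs of 2 clusters, and Hoxd9. The median log2 difference was 0.34 over the Hox genes and -0.10 over all genes tested. In 0 of the 23 genes did every diaphragm library lie above every heart library, against 0.0824% of all genes, and in 0 below, against 0.208%.

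Hoxb7 ranged from 7.246 to 13.99 TPM (median 10.8) in diaphragm LECs and from 0 to 9.189 TPM (median 2.344) in heart LECs. Only the heart library of ctrl mouse 1 reached into the diaphragm range, and the log2 difference was 1.74 ± 0.26 (limma adjusted p = 2.325e-05). Hoxa7 ranged from 20.23 to 68.41 TPM (median 49.76) against 2.441 to 41.75 TPM (median 17.54), with a difference of 1.31 ± 0.25 (adjusted p = 0.0008123). Both genes were higher in the diaphragm in 11 of the 11 mice that gave both tissues.

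The paralogs of group 6 had lower levels and followed the same direction. Hoxb6, also active in blood progenitors, had a median of 2.904 TPM (0 to 9.417) in diaphragm LECs and 0.5474 TPM (0 to 3.393) in heart LECs, with a difference of 1.21 ± 0.26 (limma adjusted p = 0.002775). Hoxa6 had medians of 2.589 TPM (0 to 4.898) and 0.6271 TPM (0 to 2.472) and a difference of 1.14 ± 0.27 (adjusted p = 0.008624). The ranges of both overlapped, with 10 of 11 mice higher in the diaphragm for Hoxb6 and 11 of 11 for Hoxa6. Without mouse 2 the Hoxa6 call was lost (adjusted p = 0.06974).

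Hoxd9 ranged from 50.09 to 81.84 TPM (median 63.45) in diaphragm LECs and from 22.41 to 58.99 TPM (median 38.77) in heart LECs and was higher in 11 of 11 mice (0.74 ± 0.15, limma adjusted p = 0.00151). The neighbours of Hoxd9 did not pass in this fit. Hoxd10 had medians of 19.12 and 10.57 TPM and a difference of 0.93 ± 0.32 (adjusted p = 0.091), and Hoxd8 had medians of 27.32 and 20.6 TPM and a difference of 0.51 ± 0.19 (adjusted p = 0.12). With the mouse as a block in the same fit 7 genes passed, Hoxd10 (1.10 ± 0.27, adjusted p = 0.0133) and Hoxa5 (0.88 ± 0.26, adjusted p = 0.03776) in addition to the 5. Over all genes the block gave 952 higher and 1298 lower, against 617 and 875 without it. For Hoxd4 the difference was 0.02 with an interval from -0.59 to 0.63, and for Hoxb2 it was 0.37 with an interval from -0.20 to 0.93.

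The 5 called differences between the lymphatic beds had the same sign in each treatment group and batch. Hoxb7 differed by 1.90, 2.10 and 1.23 in ctrl, angII and angII+VEGFC mice, Hoxa7 by 1.33, 1.73 and 0.88, Hoxa6 by 1.42, 0.93 and 1.05, and Hoxd9 by 0.78, 0.78 and 0.65. Hoxb7 passed in ctrl and angII mice but not in angII+VEGFC mice (limma adjusted p = 0.01664, 0.00188 and 0.5423). Hoxa7 passed only in angII mice (adjusted p = 0.09872, 0.009722 and 0.8453). Hoxa6 (adjusted p = 0.09993, 0.3181 and 0.7547) and Hoxd9 (0.1031, 0.07148 and 0.6356) passed in no treatment group. Hoxb6 differed by 2.25 in ctrl mice, whose 4 heart libraries were listed at 0, and passed there (limma adjusted p = 0.00317), but by 0.54 in angII (adjusted p = 0.619) and 0.83 in angII+VEGFC mice (adjusted p = 0.8843). In batch 1 alone 0 Hox genes passed the limma test although the differences were of like size (Hoxb7 1.90, Hoxa7 1.27, Hoxb6 1.27, Hoxa6 1.26 and Hoxd9 0.75), and only 71 of all genes were higher and 150 lower there. In batch 2 alone 4 passed and Hoxa6 did not (1.07, adjusted p = 0.05154). Without the libraries that stood apart 5 passed. Over all genes, 478 were higher and 795 lower in batch 2, and 442 and 702 without those libraries.

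**Figure D3:**
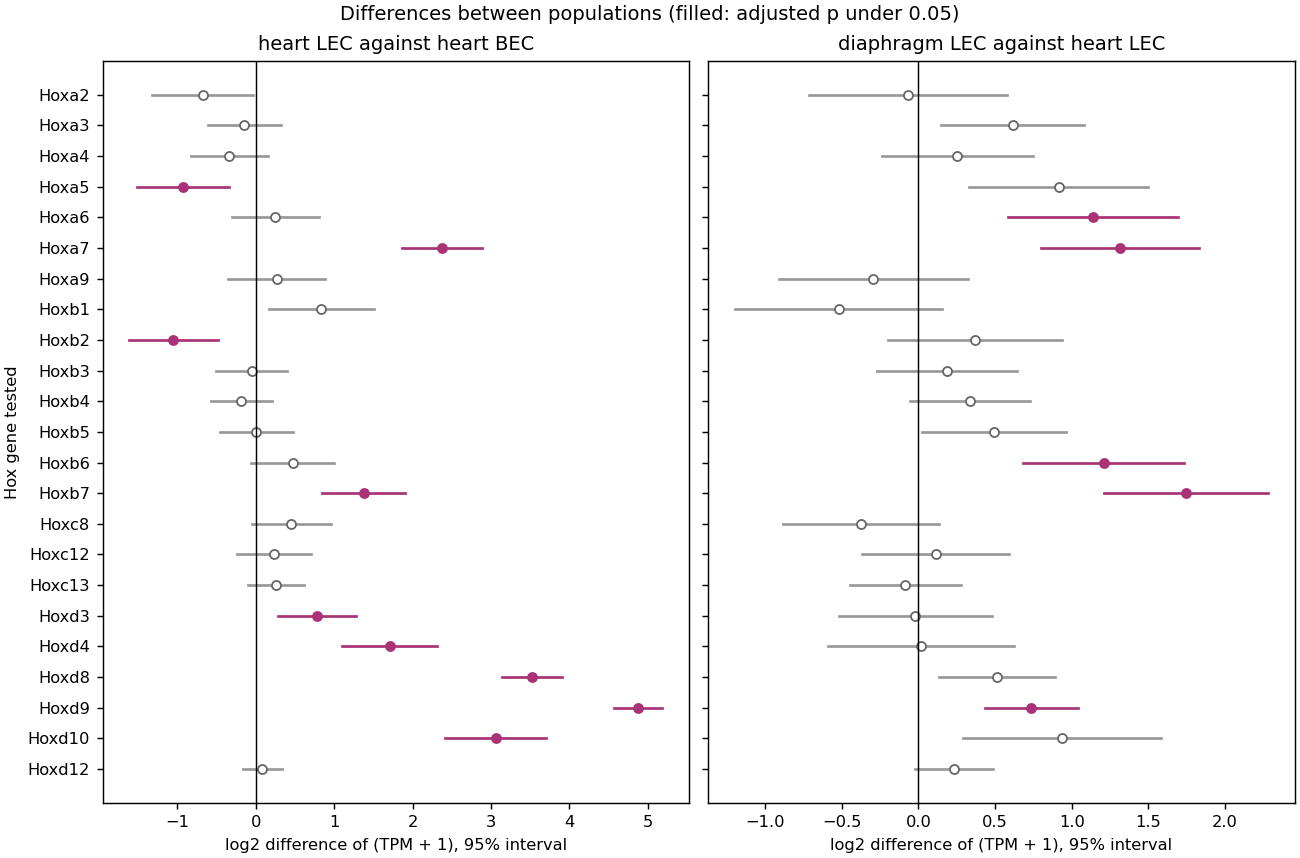
Differences in log2(TPM + 1) of the 23 Hox genes tested, heart LECs minus heart BECs on the left and diaphragm LECs minus heart LECs on the right, as points with 95% intervals. Filled points passed the limma test with adjusted p under 0.05. Hoxd8, Hoxd9, Hoxd10 and Hoxa7 stand out on the left, and Hoxa6, Hoxa7, Hoxb6, Hoxb7 and Hoxd9 on the right.

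Markers of other cells moved with this contrast. The summed lymphatic markers (7 genes) had medians of 37240 TPM (22650 to 43490) in diaphragm LECs and 23210 TPM (18170 to 32110) in heart LECs, a ratio of 1.604, and 6 of the 7 were called higher in the diaphragm. The summed blood endothelium markers (7 genes) had medians of 1260 TPM (1007 to 1830) and 3039 TPM (1899 to 8239), without overlap, against 18230 TPM in heart BECs, and 6 of the 7 were called lower and 1, Kdr, higher in the diaphragm. Of the cardiomyocyte markers 4 of 7 and of the fibroblast markers 3 of 7 were lower, while 4 of 5 skeletal muscle markers tested were higher. Of the 4 mesothelium markers tested 3 were called higher and 1 lower. Of all genes tested, 1.88% were higher and 2.67% lower in this contrast. No defining marker of blood endothelium had a median of 0 TPM in either LEC population.

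The diaphragm level was therefore also set against the lymphatic content of each library, as a description without a test. The ratio of median TPM, diaphragm to heart, was 4.608 for Hoxb7, and it was 2.676 when each level was divided by the lymphatic marker sum and 3.408 when divided by Prox1. For Hoxb6 the 3 ratios were 5.305, 3.045 and 3.709, for Hoxa6 4.129, 2.363 and 2.501, and for Hoxa7 2.837, 1.652 and 1.733. For Hoxd9 they were 1.637, 1.072 and 1.255, for Hoxd10 1.809, 1.035 and 1.354, and for Hoxd8 1.326, 0.8763 and 0.9856. For Hoxb2 they were 1.152, 0.7348 and 0.8366 and for Hoxd4 0.9452, 0.5378 and 0.6783. For Hoxa5 they were 1.861, 1.33 and 1.608. Both divisors lowered the ratio of every gene listed, though not all to the same degree, and the order of the genes is nearly that of the undivided ratios.

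With the log2 blood endothelium marker sum as a covariate, an alternative chosen after the data were seen, 0 Hox genes passed the limma test between the lymphatic beds, and over all genes 8 were higher and 26 lower. The estimate for Hoxb7 was 2.02 ± 0.68, for Hoxa7 1.06 ± 0.60, for Hoxb6 1.06 ± 0.76, for Hoxa6 0.90 ± 0.78 and for Hoxd9 0.20 ± 0.33. The covariate does not overlap between the beds, and the SE of Hoxb7 was 0.68 with it against 0.26 without it.

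**Figure D4:**
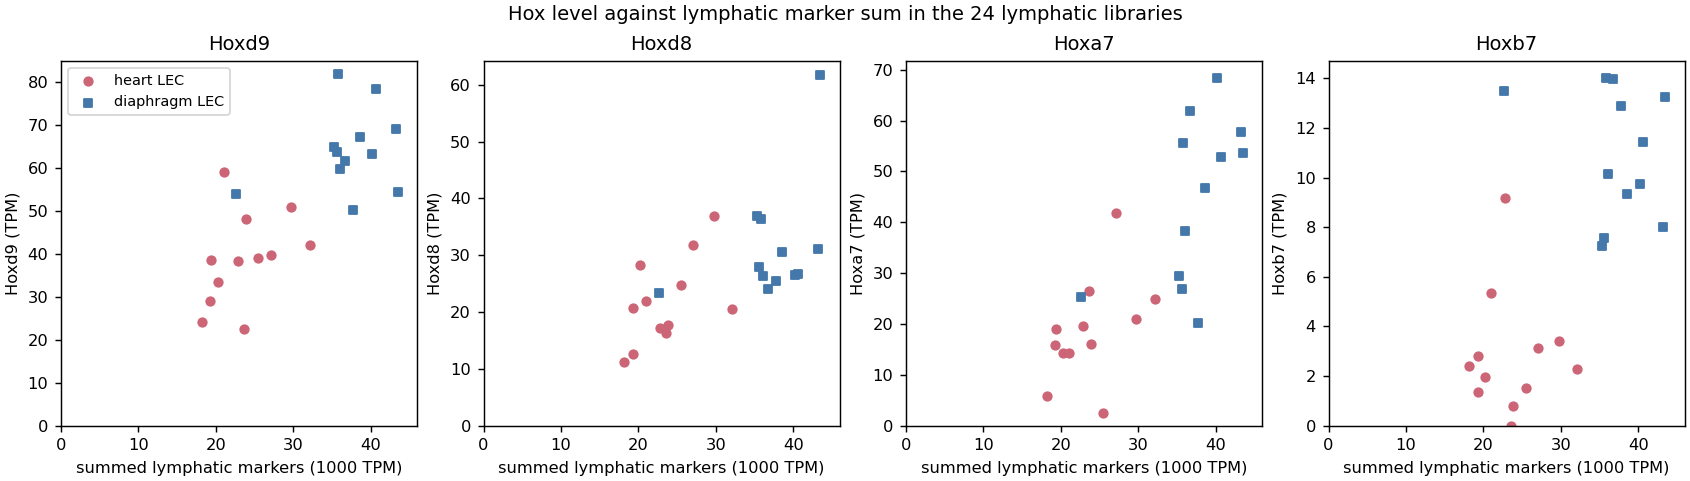
Level in TPM of Hoxd9, Hoxd8, Hoxa7 and Hoxb7 against the summed lymphatic markers (in kTPM) in the 24 lymphatic libraries, heart as circles and diaphragm as squares. The heart libraries span 18170 to 32110 TPM and the diaphragm libraries 22650 to 43490 TPM of summed markers. Every diaphragm library has at least 7.246 TPM of Hoxb7, a level that only 1 heart library reaches, whereas the Hoxd8 values of the tissues overlap.

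Cardiomyocytes had the lowest summed Hox level, and many genes of all kinds were lower in these libraries. Of 19 Hox genes tested 0 were higher in cardiomyocytes than in heart BECs, against 7.39% of all 30275 genes, and 7 were lower, against 42.7% (limma; 9 of the 19 had an unadjusted p under 0.05). Against heart LECs 0 were higher, with 7.76% of all genes, and 13 were lower, with 59.4% (14 at an unadjusted p under 0.05). The median log2 difference over all genes was -0.44 against heart BECs and -0.61 against heart LECs, and over the Hox genes tested it was -0.31 and -0.69. Quantile normalization, which set the medians over all genes to -0.10 and -0.14, left 1 higher and 1 lower Hox gene against heart BECs and 1 higher and 8 lower against heart LECs. Among all genes it called 4464 higher and 5441 lower against heart BECs, and 5094 and 6404 against heart LECs. Without the libraries that stood apart 7 and 13 Hox genes were lower, and 9673 and 15343 of all genes. All cardiomyocyte libraries were sequenced in a batch of their own, so the cell type and the batch cannot be told apart.

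Hoxd9 and Hoxd8 were low in both cardiomyocytes and heart BECs. Hoxd9 ranged from 0.04498 to 1.004 TPM (median 0.2811) in cardiomyocytes, with an interval of the difference from heart BECs of -0.35 to 0.36, and Hoxd8 ranged from 0.3422 to 2.674 TPM (median 1.163), with an interval from -0.29 to 0.52. Against heart LECs both were lower, Hoxd9 by -4.88 ± 0.17 (limma adjusted p = 2.111e-21) and Hoxd8 by -3.41 ± 0.20 (adjusted p = 6.612e-16), as were Hoxa7 (-3.37 ± 0.27), Hoxd10 (-3.15 ± 0.28), Hoxd4 (-1.92 ± 0.20), Hoxb7 (-1.53 ± 0.24), Hoxb1 (-1.03 ± 0.31), Hoxc8 (-0.88 ± 0.19) and Hoxb5 (-0.67 ± 0.21). The other 4 of the 13, Hoxb4, Hoxb6, Hoxa6 and Hoxd3, had medians under 1 TPM in both. Compared with heart BECs, Hoxa5 had the largest difference, with 0.3549 to 2.078 TPM (median 1.332) in cardiomyocytes against 3.301 to 9.108 TPM, without overlap (-1.41 ± 0.25, limma adjusted p = 1.437e-05). Hoxa7 (-0.99 ± 0.27, adjusted p = 0.002715), Hoxa2 (-0.72 ± 0.26, adjusted p = 0.01886) and Hoxb5 (-0.66 ± 0.21, adjusted p = 0.007946) were also lower than in heart BECs, as were Hoxb4 and Hoxa3, whose medians in these populations were under 1 TPM. Hoxb2 was the most abundant Hox transcript of the cardiomyocyte libraries, with 2.872 to 6.495 TPM (median 4.176). These unsorted libraries had a median cardiomyocyte marker sum of 11880 TPM and a blood endothelium marker sum of 2891 TPM, against 18230 TPM in heart BECs. Their fibroblast and leukocyte marker sums were 4021 and 663.5 TPM. The part of other cells in their Hox levels was not tested. The antisense RNA Hoxb3os overlaps 27.3% of the exon bases of Hoxb2, and reads of the pair cannot be told apart there. The Hoxb2 difference of cardiomyocytes from heart LECs was 0.23 with an interval from -0.27 to 0.73, and from heart BECs it was -0.82 ± 0.24 (adjusted p = 0.005482), while with quantile normalization they were 1.04 ± 0.23 (adjusted p = 0.000414) and -0.20 ± 0.23 (adjusted p = 0.5551).

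The remaining members were close to silent. In the fit of the endothelial libraries 16 of the 39 did not reach 1 TPM in 3 libraries and were not tested, among them Hoxa10, Hoxa11 and Hoxa13, Hoxb8, Hoxb9 and Hoxb13, most of the Hoxc cluster, and Hoxd1, Hoxd11 and Hoxd13. The highest value of any of them in an endothelial library was 1.779 TPM, for Hoxc5 in diaphragm LECs. Hoxb8 and Hoxb9, which sit next to Hoxb7, had medians of 0 TPM in all 4 populations, and no Hoxb gene beyond paralog 7 reached a median of 1 TPM in any population. Within the Hoxa cluster Hoxa9, beside Hoxa7, had medians of 0.3857 TPM in heart LECs and 0.1115 TPM in diaphragm LECs. In the Hoxd cluster Hoxd11, beside Hoxd10, had medians of 0 TPM in both.

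Treatment was then compared within each population, to see whether the Hox pattern was stable. In heart LECs 0 of 18 Hox genes tested passed in angII against ctrl (0.0261% of all genes), in angII+VEGFC against angII (0%) or in angII+VEGFC against ctrl (0%), with 2, 3 and 1 at an unadjusted limma p under 0.05, where 10.86%, 10.84% and 4.943% of all genes lay. In diaphragm LECs 0 of 21 passed in the same contrasts (0% of all genes in each), with 4, 2 and 0 at an unadjusted p under 0.05, against 15.32%, 8.784% and 1.317% of all genes. In heart BECs 0 of 10 passed (0% in each), with 1, 0 and 0 at an unadjusted p under 0.05 (5.399%, 2.589% and 5.507% of all genes), and in cardiomyocytes 0 of 4 passed (0.0892%, 0% and 0.663%), with 0 at an unadjusted p under 0.05 in each (9.846%, 2.409% and 12.85% of all genes). Since few or no genes of any kind passed, these counts do not set the Hox genes apart from the rest. Without the libraries that stood apart 0 Hox genes passed in any of these contrasts.

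The leading lymphatic gene, Hoxd9, was at 38.37 ± 11.86, 34.73 ± 9.319 and 45.72 ± 11.51 TPM in heart LECs and at 64.39 ± 10.06, 59.27 ± 7.499 and 71.29 ± 9.205 TPM in diaphragm LECs of ctrl, angII and angII+VEGFC mice (mean ± SD, n = 4, 5 and 3). The groups overlapped in both tissues. The interval of the angII minus ctrl difference ran from -0.74 to 0.52 in heart LECs and from -0.45 to 0.26 in diaphragm LECs, and these bounds are the change that the data leave possible. For Hoxd8 the intervals were -0.95 to 0.52 and -0.82 to 0.27.

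Hoxa7 had the smallest p in angII against ctrl in both lymphatic beds. In heart LECs the 4 ctrl libraries held 19.54, 24.92, 26.44 and 20.9 TPM, the 5 angII libraries 2.44, 5.91, 15.99, 14.23 and 15.84 TPM and the 3 angII+VEGFC libraries 14.37, 19.08 and 41.75 TPM. Every angII library of the heart lay below every ctrl library, and the log2 difference was -1.32 ± 0.47 (limma adjusted p = 0.3433). In diaphragm LECs the ctrl libraries held 53.6, 52.77, 61.8 and 68.41 TPM, the angII libraries 57.83, 26.96, 25.26, 38.39 and 20.23 TPM and the angII+VEGFC libraries 46.75, 29.41 and 55.57 TPM (-0.86 ± 0.28, limma adjusted p = 0.2966). There 4 of the 5 angII libraries lay below every ctrl library. The share of all genes whose libraries separate in this way is not given here for either tissue. In angII against ctrl, 10.86% of all genes in heart LECs and 15.32% in diaphragm LECs had an unadjusted limma p under 0.05. The angII and ctrl groups hold the same mice in both tissues apart from 1 angII mouse in each, so the tissues are not independent of each other. In heart LECs the blood endothelium marker sum was 3355 to 8239 TPM in angII libraries and 1899 to 3424 TPM in ctrl libraries, and its part in the Hoxa7 values was not tested.

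Other genes with a small unadjusted p had low levels. Hoxb6 was listed at 0 TPM in all 4 ctrl libraries of heart LECs and at 1.504, 2.153 and 3.393 TPM in the angII+VEGFC libraries (1.91 ± 0.51, limma adjusted p = 0.9149). In diaphragm LECs, however, it ranged from 0.875 to 9.417 TPM in ctrl mice. Hoxd12, a digit gene, was listed at 0 TPM in all 4 ctrl libraries of diaphragm LECs, at 0.214 to 1.909 TPM in the 5 angII libraries and at no more than 0.06383 TPM in the angII+VEGFC libraries (angII against ctrl 0.97 ± 0.36, limma adjusted p = 0.2991). The angII libraries of diaphragm LECs listed more genes at 1 TPM or more (20062 to 23691) than the ctrl libraries (12924 to 18116), and the median log2 difference over all genes was 0.28. The part of gene number in the Hoxd12 values was not tested. The 3 smallest p of each bed in angII against ctrl were completed by Hoxa9 in diaphragm LECs (1.16 ± 0.45, adjusted p = 0.3034) and by Hoxb4 (0.97 ± 0.41, adjusted p = 0.4088) and Hoxa3 (0.84 ± 0.44, adjusted p = 0.5015) in heart LECs.

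Against angII alone, angII+VEGFC gave the smallest p for Hoxa7 (1.43 ± 0.56, adjusted p = 0.4287), Hoxb6 (1.17 ± 0.52, adjusted p = 0.4499) and Hoxa3 (-1.10, adjusted p = 0.4606) in heart LECs. In diaphragm LECs these were Hoxb3 (1.08, limma adjusted p = 0.5671), Hoxd12 (-0.95 ± 0.41, adjusted p = 0.5671) and Hoxb6 (1.42 ± 0.67, adjusted p = 0.5673). Compared with ctrl, the 3 smallest p belonged to Hoxb6, Hoxd3 (1.16) and Hoxa5 (1.12) in heart LECs (adjusted p = 0.9149 for each) and to Hoxb3 (0.73), Hoxa7 (-0.52) and Hoxb1 (0.38) in diaphragm LECs (adjusted p = 1 for each). A difference of the angII response between the lymphatic beds was tested as an interaction, and 0 of 23 Hox genes passed, against 0.00611% of all genes, with 4 at an unadjusted limma p under 0.05. For the difference between angII+VEGFC and angII 0 of 23 passed, against 0%, with 1 at an unadjusted p under 0.05. The share of all genes at the unadjusted threshold is not given here for the interactions, so neither count can be read as an excess.

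**Figure D5:**
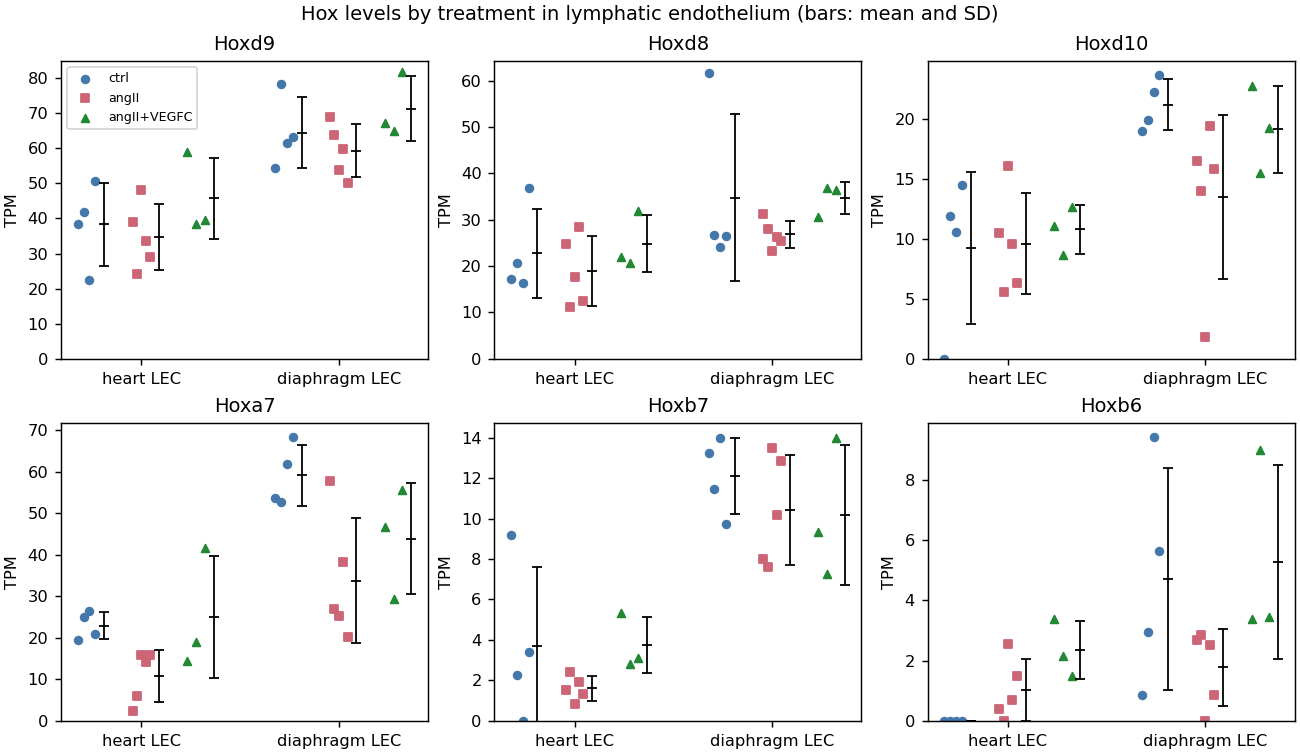
Level in TPM of 6 Hox genes in each lymphatic library by treatment (ctrl circles, n = 4; angII squares, n = 5; angII+VEGFC triangles, n = 3), with mean and SD as black bars. The groups overlap for Hoxd9 in both tissues, and the 5 angII libraries of heart LECs lie below the 4 ctrl libraries for Hoxa7 (limma adjusted p = 0.3433).

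Genes that work with Hox genes were compared through lists chosen for their function. Among 9 TALE homeodomain proteins, which bind DNA together with Hox proteins, 0 were higher and 0 lower in diaphragm than in heart LECs. In that contrast 1.88% of all genes were higher and 2.67% lower. Of the 9, 2 were higher and 2 lower in heart LECs than in heart BECs, where 8.94% of all genes were higher and 8.64% lower. Meis2, with medians of 34.31 and 8.468 TPM in these populations, was among the higher ones (1.94 ± 0.15, limma adjusted p = 3.761e-12), and Meis1 (-1.22 ± 0.21, adjusted p = 2.408e-05) and Pknox2 (-1.35 ± 0.24, adjusted p = 5.15e-05) were the lower ones. Between the lymphatic beds Meis2 had medians of 28.45 and 34.31 TPM and differed by -0.27 ± 0.15 (adjusted p = 0.3703).

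Retinoic acid is a known inducer of 3′ Hox genes. Of 15 genes of its pathway tested 0 were higher and 2 lower in diaphragm than in heart LECs, against 1.88% and 2.67% of all genes. Among the lower ones was Aldh1a3, an enzyme that makes retinoic acid (3.499 against 7.976 TPM, -1.27 ± 0.21, limma adjusted p = 0.000111). Aldh1a2, the main such enzyme of the embryo, differed by -1.08 ± 0.38 (adjusted p = 0.1109) and Dhrs3 by 0.39 ± 0.17 (adjusted p = 0.2112). Between heart LECs and heart BECs 1 of the 15 was higher and 4 were lower, against the same 8.94% and 8.64% of all genes. The median over the 15 was -0.09 between the lymphatic beds, against -0.10 over all genes.

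Polycomb and trithorax proteins keep Hox genes silent or active. Of 23 such genes 0 were higher and 1 lower in diaphragm than in heart LECs, against 1.88% and 2.67% of all genes. The lower one was the Polycomb subunit Cbx8 (1.548 against 4.619 TPM, -0.99 ± 0.24, limma adjusted p = 0.01014). Bmi1 (0.43 ± 0.15, adjusted p = 0.1028), Kdm6a (0.43 ± 0.20, adjusted p = 0.2437) and Kmt2a (-0.41 ± 0.21, adjusted p = 0.3152) followed. Between heart LECs and heart BECs 2 of the 23 were higher and 3 lower, against 8.94% and 8.64% of all genes. None of the 6 ParaHox and Cdx genes, relatives of the Hox clusters, was called between the lymphatic beds or between heart LECs and heart BECs, and only 1 of them, Cdx4, was high enough to be tested.

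Transcripts in and around the clusters were compared in the same way. Of 7 non-coding RNAs of the clusters tested, Hoxd3os1, antisense to Hoxd3 and Hoxd4, was higher in heart LECs than in heart BECs, with 13.41 to 39.25 TPM (median 24.8) against 0.5209 to 7.098 TPM (median 1.58), without overlap (3.18 ± 0.22, limma adjusted p = 1.919e-13). Its median in diaphragm LECs was 28.75 TPM, and its difference between the lymphatic beds was 0.33 ± 0.22 (adjusted p = 0.4633). Its reads cannot be told apart from those of Hoxd3 and Hoxd4 where they overlap. Hoxb5os (0.50 ± 0.16, adjusted p = 0.07036), Hoxb3os (0.38 ± 0.23, adjusted p = 0.3912) and Hoxaas3 (0.37 ± 0.31, adjusted p = 0.5685) did not pass between the beds. Of 11 genes beside the clusters tested, Skap2, an adaptor protein beside the Hoxa cluster, was higher (0.43 ± 0.13, adjusted p = 0.04663) and Snx10, a sorting nexin farther along the same chromosome, lower in diaphragm than in heart LECs (-1.36 ± 0.26, adjusted p = 0.0008784). Between the same LECs 1.88% of all genes were higher and 2.67% lower in the diaphragm.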

How the data were processed

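RNA of sorted or pelleted cells was amplified with a Smart-Seq ultra low input kit and made into libraries with Nextera XT. According to the submitters' processing notes and the study's methods, reads were aligned with STAR 2.5.3a and quantified with Salmon 0.12.0 against GRCm38. The authors deposited gene-level TPM (a length-corrected share of transcripts on a fixed total) for 48 libraries, and no column was without a sample (0 unmapped). The totals were 997657 to 999929 TPM per library. TPM keep no depth, so no count test was run and precision rests on replicates.

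The Ensembl identifiers were matched to GENCODE symbols (54723 of 54752 matched). Values were used as log2(TPM + 1), which understates changes of low genes, keeping a gene where 3 or more libraries of a fit reached 1 TPM, and tested with limma 3.58.1 (R 4.3.3) with a mean-variance trend and Benjamini-Hochberg adjustment at 0.05. Age and batch were covariates in fits of the 36 endothelial libraries, which gave the comparisons of LECs and BECs. Cardiomyocytes were compared in a fit of the heart populations with age and endothelial batch, and treatments within each population with age and batch (age alone in cardiomyocytes). The script was first tested on simulated data. Tables and figures used Python 3.11.15 (pandas 2.3.3, numpy 2.4.6, matplotlib 3.10.9). No pair of libraries was identical (highest correlation 0.986).

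Full statistics are given for up to 10 members per population contrast, those with the largest difference among members with adjusted p under 0.05 and a median of at least 1 TPM in a population, and for the 3 members with the smallest p in each treatment contrast of the LECs when none passed. Up to 4 genes are named from each further list, and a few genes are not reported here. The members, the lists and the tests were chosen with earlier results of these data known.

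Alternatives were a pseudocount of 0.1, no filter, a filter of 12 libraries, no covariates, quantile normalization, gene number as a covariate, only the 2 populations compared, each batch alone, each mouse left out, and the mouse as a replicate block. Libraries of the same mouse are paired by the animal numbers of the labels. Deviations from group means correlated with a mean r of 0.065 over 34 same-mouse pairs (-0.1375 to 0.25) and of -0.00502 over 398 pairs of different mice. Omitting 10 libraries that stood apart and a covariate for blood endothelium markers were added after the data were seen.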

Additional observations from a re-analysis of the deposited data

Results flagged for a closer look

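Of 64 groups of 4 or 5 libraries tested, 3 held a single library far from the others by Dixon's criterion, which chance alone gives in about 1 of 20 groups. In heart LECs of ctrl mice, Hoxb1 was at 13.41 TPM in mouse 9 and at 0 to 1.165 TPM in the others. In diaphragm LECs of angII mice, Hoxd4 was at 22.42 TPM in mouse 4, the library with the lowest lymphatic marker sum, and at 0.8573 to 4.837 TPM in the others. In diaphragm LECs of ctrl mice, Hoxd8 was at 61.66 TPM in mouse 1 and at 24.11 to 26.71 TPM in the others. The cause was not tested in any of these.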

How the results depend on the processing

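Between diaphragm and heart LECs, the count of 5 Hox genes became 3 with a pseudocount of 0.1 and 0 in batch 1 alone. It became 0 with the blood endothelium marker covariate chosen after seeing the data. The fit of only the 2 populations, without that covariate, gave 4. Between heart LECs and heart BECs the count of 9 became 4 in batch 1 alone, where fewer libraries were tested. For cardiomyocytes against heart BECs the count of 7 became 2 with quantile normalization and 4 with gene number as a covariate, and against heart LECs the count of 13 became 7 with gene number as a covariate and 5 with the filter of 12 libraries, which tests only 8 Hox genes. Over all genes the calls between the lymphatic beds were 617 higher and 875 lower, and 557 and 794 with the pseudocount of 0.1. With gene number as a covariate, 8861 and 7725 of all genes were lower in cardiomyocytes than in heart BECs and heart LECs, against 12942 and 17996. Other causes were not tested. Under a replicate block for the mouse, 7, 9, 9, 7 and 13 Hox genes passed for diaphragm against heart LECs, heart LECs against BECs, diaphragm LECs against heart BECs, and cardiomyocytes against heart BECs and heart LECs, and the pairing added Hoxa5 and Hoxd10 to the first. Among all genes the block called 952 higher and 1298 lower, 3844 and 3217, 2850 and 3171, 2271 and 13292, and 2370 and 18138. Without the block these were 617 and 875, 2929 and 2831, 2470 and 2951, 2236 and 12942, and 2349 and 17996. Leaving out each mouse gave 4 to 6, 7 to 10, 8 to 10, 6 to 8 and 13 to 15 in the same order. Treatments and interactions gave 0 to 0. The calls over all genes with each mouse left out are not given here. Of 799 alternative values of 35 named differences under 25 settings, 759 kept their direction and side of the threshold, 40 lost their call and 0 reversed. TPM without counts limit what can be said of genes near 0.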
